A study of Mus musculus with 2 samples.

Results

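The genes of the neuropeptides somatostatin (Sst) and neuropeptide Y (Npy) and of 4 somatostatin receptors (Sstr1, Sstr2, Sstr3 and Sstr4) were followed through the cells of the embryonic mouse dorsal telencephalon. These 6 genes were taken by symbol from the 32285 genes of the deposited tables, and each symbol matched 1 Ensembl gene. Unique molecular identifiers (UMIs, each marking 1 captured transcript) had been counted by droplet-based single-cell RNA sequencing. Both libraries came from dorsal telencephalon of embryos at embryonic day 14.5, labelled EomesDot with genotype WT and described by the submitters as control animals of an Eomes-Cre line. They are called library 2 and library 4 after the numbers that end their titles, and they form 1 group. All comparisons below are therefore between cell classes within these 2 libraries. The labels do not say whether the libraries came from separate embryos, so that p-values measure only the spread between them, which may be technical.

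Somatostatin is made by GABAergic interneurons that arise mainly in the medial ganglionic eminence (MGE) and migrate into the cortex, and many of the same neurons also make neuropeptide Y. Both peptides are cut from larger precursors, stored in dense-core vesicles and released from them. Somatostatin receptors are G protein-coupled receptors that act through Gi/o proteins, which lower cyclic AMP, open GIRK potassium channels and restrain calcium channels. In the dorsal telencephalon, radial glial cells (RGC) give rise to intermediate progenitor cells (IPC), which express the transcription factor Eomes and divide to produce excitatory neurons. The arrival of somatostatin-making interneurons among these cells raised the question of which cells carried RNA of the ligand and which carried RNA of its receptors.

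After filtering, 1199 cells of library 2 (median 30810 UMIs and 6091 genes) and 1923 cells of library 4 (median 22826 UMIs and 5356 genes) were retained, and 1 barcode among them occurred in both libraries. Clusters were named from marker genes, with neither the 6 genes nor their pathway genes used in clustering, and the names carry "-like" because they rest on RNA alone. In library 2 and library 4 there were 257 and 433 RGC-like, 122 and 179 IPC-like, 273 and 446 newborn excitatory neuron-like, 312 and 462 later excitatory neuron-like, 54 and 83 MGE interneuron-like and 22 and 39 Lhx6-negative interneuron-like cells. All 9 RGC markers were raised in each RGC-like cluster and at least 7 of 8 IPC markers in each IPC-like cluster. The newborn clusters raised 6 or 7 of 8 newborn markers but also 5 to 9 of 14 markers of later neurons, so this border is gradual. MGE interneuron-like sub-clusters raised 4 to 6 of 8 markers, with Lhx6 and Maf among their leading genes. The Lhx6-negative class joined 2 unlike sub-clusters. Sub-cluster 5 (36 cells, with Adarb2 and Prox1 among its leading genes) raised 5 of 6 markers of such interneurons. Sub-cluster 3 (25 cells, led by Ccnd2) raised 3 of these 6, and also 4 of 9 RGC and 3 of 8 IPC markers. Levels are given as CPM, the UMIs of a gene scaled to 1e+06 UMIs of the class, and as mean ± SD over 2 libraries.

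The genes lie apart in the genome (GRCm38.p6, the mm10 assembly): Sst at chr16:23889573-23891342, Npy at chr6:49822710-49829507, Sstr1 at chr12:58211421-58216037, Sstr2 at chr11:113619327-113626028, Sstr3 at chr15:78537014-78549365 and Sstr4 at chr2:148395377-148396764. RefSeq promoter windows were found for 5 of 6 genes, and Sstr1 had no entry. Printed here are the 250 bases before the start of Sst and Npy, the ligands that were highest in the same class, and of Sstr2, the receptor with the most UMIs. Each runs 5′ to 3′ on the strand of its gene, and capitals mark the full cyclic AMP response element (CRE) TGACGTCA, which reads the same on both strands.
Sst, chr16:23890845-23891094, minus strand: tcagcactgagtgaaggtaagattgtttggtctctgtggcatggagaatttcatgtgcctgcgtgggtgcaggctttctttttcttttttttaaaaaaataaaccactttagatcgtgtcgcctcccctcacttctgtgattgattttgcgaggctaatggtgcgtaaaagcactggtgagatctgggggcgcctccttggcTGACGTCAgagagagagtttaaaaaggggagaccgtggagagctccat
Npy, chr6:49822460-49822709, plus strand: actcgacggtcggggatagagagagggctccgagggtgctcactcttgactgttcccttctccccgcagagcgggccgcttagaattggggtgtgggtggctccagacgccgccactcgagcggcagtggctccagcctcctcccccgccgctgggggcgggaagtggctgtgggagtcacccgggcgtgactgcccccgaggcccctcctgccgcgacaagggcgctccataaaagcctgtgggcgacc
Sstr2, chr11:113619077-113619326, plus strand: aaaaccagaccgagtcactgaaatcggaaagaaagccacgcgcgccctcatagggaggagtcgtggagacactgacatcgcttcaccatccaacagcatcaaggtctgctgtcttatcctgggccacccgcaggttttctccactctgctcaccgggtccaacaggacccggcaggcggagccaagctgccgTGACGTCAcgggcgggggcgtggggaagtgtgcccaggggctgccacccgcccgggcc
RefSeq's span of Sst reaches past the start used here, so that its window lies within that span. The element began 48 bases before the Sst start and 58 bases before the Sstr2 start. It was found in 508 of 32851 RefSeq promoter windows of this length (1.55%). Of the 6 windows of these genes, including 2 for Sstr3 and 1 for Sstr4, only those of Sst and Sstr2 held it. None of the 6 held the E-boxes CAGATG or CAGCTG or the letters TATAAA on either strand, which 14.4%, 13% and 12.4% of all windows held. These are matches of letters, and binding was not measured.

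Sst was found mainly in MGE interneuron-like cells. They held 724 Sst UMIs in library 2 and 796 in library 4, at levels of 581 and 715 CPM (648 ± 94.6). Together these were 80.2% of the 1896 Sst UMIs in all retained cells, from 137 of the 3122 cells, and a further 17.04% lay in GABAergic cells that were given no sub-class and are described further on. In RGC-like, IPC-like, newborn and later excitatory neuron-like cells the mean level of Sst was between 0.369 and 0.421 CPM, and these 4 classes differed by less than the spread between libraries. Every library of the MGE class thus lay above every library of the other named classes. Against later excitatory neuron-like cells (1 and 10 Sst UMIs) the log2 fold change was 10.38 ± 0.48 (SE, adjusted p = 3.09e-08). Against Lhx6-negative interneuron-like cells, the class of 2 unlike sub-clusters, it was 7.51 ± 0.60 (adjusted p = 3.74e-05). That class held 1 and 2 Sst UMIs, so that the ratio of levels, 174, had a 95% counting interval of 59.4 to 845. Adjusted p-values here and below are from edgeR's quasi-likelihood test with Benjamini-Hochberg adjustment over all genes tested. Against later excitatory neuron-like cells 3 of 4 members tested were called, 2 higher (7.41% of all 14438 genes were called higher) and 1 lower (13.8%), with a background of 21.2% in either direction. Sst and Npy were high in both libraries of no other class in the fit, so that their passing the filter on low counts was not independent of this difference, and this count and the next are descriptions. Against Lhx6-negative interneuron-like cells 1 of 4 was called, higher (1.48% of all genes, with 1.35% lower and 2.83% in either direction).

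**Figure D1:**
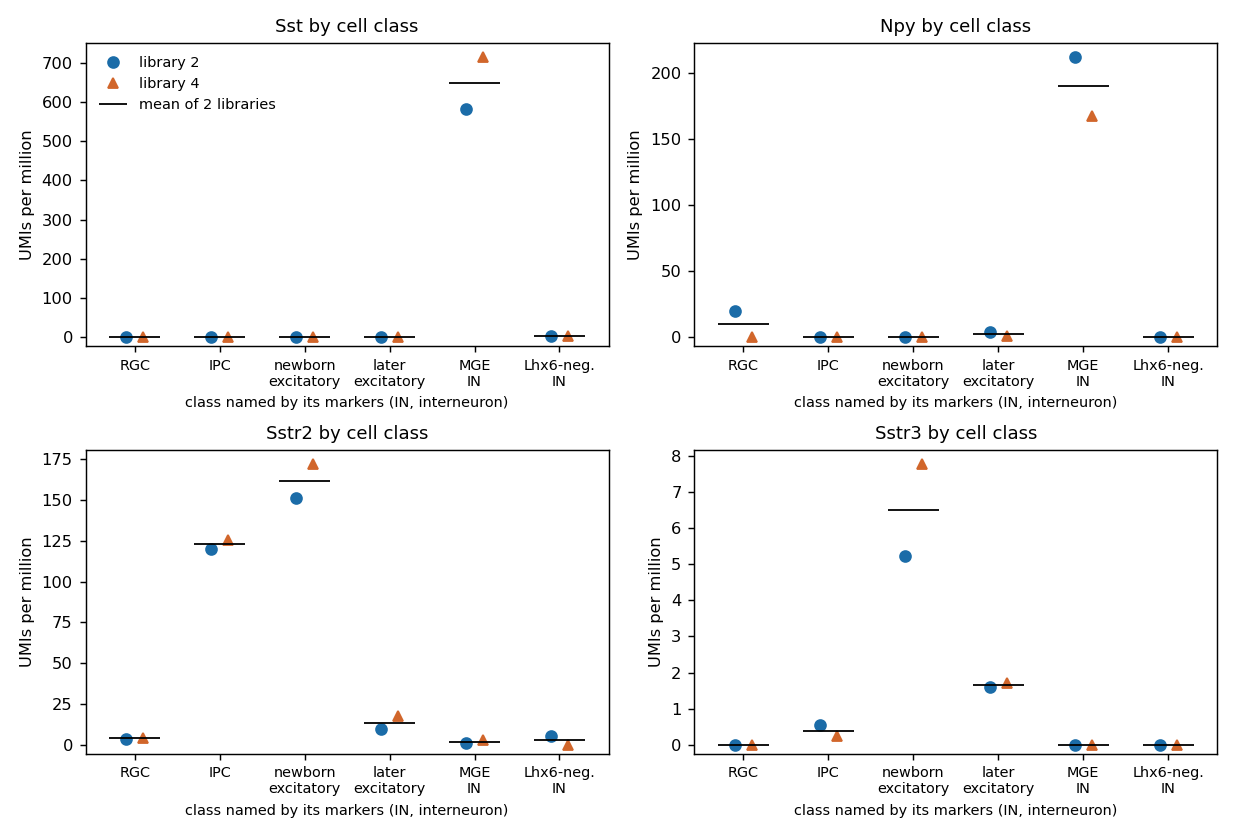
Levels of Sst, Npy, Sstr2 and Sstr3 in CPM (linear axes that differ between panels) for 6 cell classes; each point is 1 library (circles, library 2; triangles, library 4) and each bar is the mean of both. Sst and Npy are highest in MGE interneuron-like cells, Sstr2 in IPC-like and newborn excitatory neuron-like cells, and Sstr3 in newborn excitatory neuron-like cells; the Npy point of RGC-like cells in library 2 (19.96) rests on 1 cell.

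Within the MGE class, Sst RNA was concentrated in few cells. An Sst UMI was found in 42.6% of 54 cells in library 2 (95% Clopper-Pearson interval 29.2% to 56.8%) and in 31.3% of 83 cells in library 4 (21.6% to 42.4%). After each cell was thinned to 5000 UMIs these shares were 33.96% and 26.7%, with 1 and 8 shallower cells left out. The single richest cells held 347 and 273 Sst UMIs, and without them the mean level of the class was 399.8 CPM in place of 648. For comparison, 0.321% and 1.73% of later excitatory neuron-like cells held an Sst UMI, at higher median depths (38966.5 and 28203.5 UMIs per cell, against 23450.5 and 10880 in the MGE class). No expression is read from shares of this size, and the part of free RNA in them was not tested. Intervals cover counting error only.

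The 3 MGE interneuron-like sub-clusters, which were made without Sst and Npy, differed in Sst level. Sub-cluster 4 (38 cells, with Dgkg and Kcnmb2 among its leading genes) held 1501 and 1488 CPM of Sst, sub-cluster 0 (44 cells) 155 and 334 CPM, and sub-cluster 1 (55 cells) 3.19 and 48.6 CPM. Without the richest cell of each library these levels were 771 and 978, 115 and 271, and 0 and 20.8 CPM. The libraries of each sub-cluster did not overlap with those of the next, with or without these cells. Npy was ordered less clearly. It stood at 400.1 and 198 CPM in sub-cluster 4 and at 179 and 279.7 CPM in sub-cluster 0, which overlapped, and at 6.39 and 56.2 CPM in sub-cluster 1. Without the richest cell of each library Npy in sub-cluster 4 was 189 and 74.9 CPM. The median depth fell in the same order, from 21206.5 to 15441 to 9006 UMIs per cell, and its part in this order was not tested. No test was run between sub-clusters.

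Npy was highest in the same class. MGE interneuron-like cells held 264 Npy UMIs in library 2 and 186 in library 4, at 212 and 167 CPM (189.5 ± 31.7). Both libraries lay above every other named class, and 53.5% of the 841 Npy UMIs of retained cells were found there. Against later excitatory neuron-like cells, with 51 and 17 UMIs, the log2 fold change was 6.03 ± 1.07 (adjusted p = 0.00248). Lhx6-negative interneuron-like cells held no Npy UMI in either library (0 of 22 and 0 of 39 cells, which allows shares of cells with a UMI of up to 13.6% and 7.69%, taking 3 counts as the limit). The Npy level in the MGE class was thus at least 51.5-fold higher, set against a floor of 3 UMIs over both libraries. The fitted difference did not pass the threshold over all genes (adjusted p = 0.127), whereas with the library as a block it did (adjusted p = 0.0461). Of 8 alternatives 4 called it, with adjusted p from 1.30e-37 (all genes with at least 1 count) to 0.155, and DESeq2 gave 0.00476.

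Npy and Sst were often found in the same cells. In library 2, Npy was detected in 14 of 23 Sst-positive cells (60.9%) and in 6 of 31 Sst-negative cells (19.4%). In library 4 it was detected in 14 of 26 (53.8%) and in 9 of 57 (15.8%). After thinning to 5000 UMIs the shares were 50% against 22.9% and 55% against 14.5%. Summed over cells, the Npy level was 412 and 354 CPM in Sst-positive cells against 40.3 and 40.7 CPM in Sst-negative cells. This gave a log2 fold change of 3.23 ± 0.23 (adjusted p = 0.00122), called under all 11 alternatives, against a background of 0.261% of 7657 genes (0.222% higher and 0.0392% lower). Sst itself chose the cells and was left out of this test. Without the richest cell of each library and group, Npy stood at 260 and 240 CPM in Sst-positive cells. In Sst-negative cells it then stood at 27.7 and 30.9 CPM, and these levels were not tested. Conversely, 70.0% and 60.9% of Npy-positive cells held an Sst UMI, so that 15 cells of the class had Npy without detected Sst. Sst-positive cells were deeper in library 4 (median 15037 against 9006 UMIs) and little different in library 2 (25713 against 23396).

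**Figure D2:**
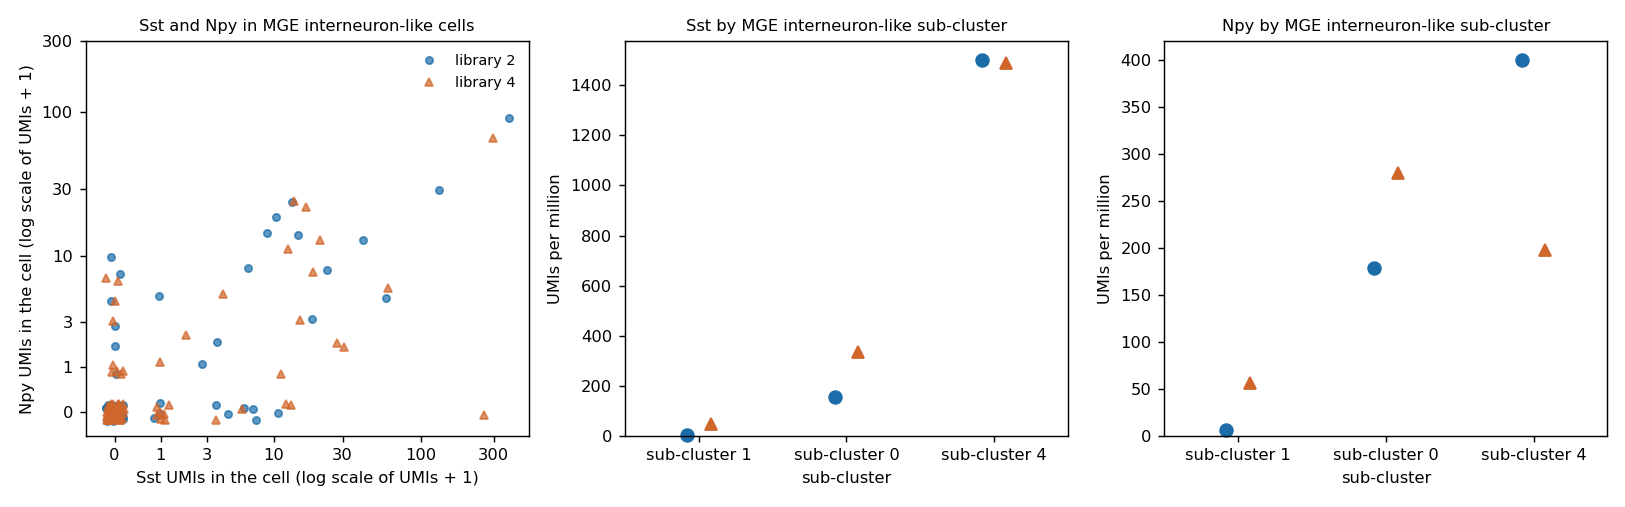
Left, Sst and Npy UMIs in each of the 137 MGE interneuron-like cells (log scale of UMIs + 1, points jittered slightly; circles, library 2; triangles, library 4); middle and right, levels of Sst and Npy in CPM for the 3 MGE interneuron-like sub-clusters, 1 point per library. Most cells lie at 0 for both genes, 28 cells held both, and Sst is highest in sub-cluster 4 in both libraries while Npy overlaps between sub-clusters 4 and 0.

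Outside the MGE class, both peptides were found in a sub-cluster of 21 GABAergic cells, all of library 4, that raised 3 of 8 MGE and 3 of 6 CGE (caudal ganglionic eminence) markers and was left without a sub-class. It held 323 Sst UMIs (1045 CPM) in 8 cells, of which 114 lay in 1 cell. Of Npy it held 129 UMIs (417 CPM) in 4 cells, of which 76 lay in 1 cell. All 4 Npy-positive cells of this sub-cluster were Sst-positive. Counting it as MGE interneuron-like left 1 gene called in the split by Sst, in place of 20, and that gene was Npy (log2 fold change 3.63, edgeR adjusted p = 0.0256, from 7.97e-24 to 0.0256 over 11 alternatives).

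Npy was also found in cells with little or no Sst. In later excitatory neuron-like cells 48 of the 51 Npy UMIs of library 2 and 7 of the 17 of library 4 lay in cluster 16, which raised 13 of 14 later neuron markers. Of these, 21 and 5 lay in 1 cell of each library, and in library 4 a single cell of cluster 10 held 8, so that the place of Npy in cluster 16 rests on library 2 and few cells. In that cluster 8 of 88 and 3 of 131 cells held Npy, against 1 of 719 newborn excitatory neuron-like cells. The rise from newborn to later excitatory neuron-like cells, with 1 UMI in the newborn class, was a ratio of 46.4 (95% counting interval 8.06 to 1860) and did not pass the test (adjusted p = 0.207). Of 13 alternatives 3 called it, DESeq2 (adjusted p = 0.0490), all genes with at least 1 count (3.12e-13) and edgeR on the compared classes alone (0.0166), over a range from 3.12e-13 to 0.297. In RGC-like cells 174 UMIs were counted in library 2 and 1 in library 4. A single cell held 172 of these. It had 83048 UMIs in all, 46 Mki67 UMIs, 24 Sox10 UMIs, 1 Sox2 UMI and no Pax6, Gad1, Gad2 or Sst UMI. Without that cell the RGC level of library 2 was 0.232 CPM in place of 19.96, and all other RGC-like cells held 3 Npy UMIs together.

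Among the receptors, Sstr2 had by far the most UMIs (4374 in retained cells) and was found in 34.9% of all cells. Its level was low in RGC-like cells, high in IPC-like and newborn excitatory neuron-like cells and low again in later excitatory neuron-like cells. RGC-like cells held 29 and 50 Sstr2 UMIs (3.33 and 4.38 CPM, 3.85 ± 0.744). IPC-like cells held 446 and 537 (119.9 and 125.9 CPM, 122.9 ± 4.19), newborn excitatory neuron-like cells 1218 and 1660 (152 and 172 CPM, 161.9 ± 14.6), and later excitatory neuron-like cells 117 and 234 (9.41 and 17.4 CPM, 13.4 ± 5.64). The libraries of these 4 classes did not overlap. An Sstr2 UMI was detected in 81.97% and 75.98% of IPC-like cells and in 84.2% and 83.6% of newborn cells, against 4.28% and 5.08% of RGC-like cells at a similar or greater depth. After thinning, these shares were 36.97% and 50.9%, 48.5% and 52.7%, and 1.65% and 1.46%.

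From RGC-like to IPC-like cells Sstr2 rose with a log2 fold change of 5.05 ± 0.40 (adjusted p = 1.15e-06). It was called under all 13 alternatives, with log2 fold changes of 3.003 to 6.38. In this comparison 1 of 4 members tested was called, higher, against a background of 26.6% of 14438 genes (12.6% called higher). From IPC-like to newborn cells the change was 0.52 ± 0.31 and did not pass the threshold (adjusted p = 0.255, from 0.0105 to 0.890 over 13 alternatives, of which 3 called it), so that the order of these neighbours is not settled. From newborn to later excitatory neuron-like cells Sstr2 fell by 3.51 ± 0.34 on the log2 scale (adjusted p = 1.07e-05), also under all 13 alternatives. There 2 of 4 members were called, both lower, against a background of 23.4% (13.9% higher and 9.53% lower). Between newborn and IPC-like cells 1 of 4 was called, higher, where 25.2% of all genes were called (13.4% higher and 11.8% lower). Sstr3 is among those called in both comparisons and passed the filter on low counts through the newborn class, so that nothing is read from these counts. At Leiden resolution 0.5 the level in RGC-like cells was 16.2 CPM.

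The RGC-like clusters were unequal in Sstr2. Cluster 8 held 16.2 and 21.4 CPM, whereas clusters 6, 7 and 12 held between 0 and 1.70 CPM. Cluster 8 raised all 9 RGC markers, 5 of 8 IPC markers and 3 of 8 hem or choroid plexus markers. Trpm3 and Rspo3 led it, and clusters 6, 7 and 12 raised 0 hem or choroid plexus markers. Which of these traits went with its Sstr2 level was not tested. RGC-like cells with an Eomes UMI held 19.6 and 20.1 CPM of Sstr2 (23 UMIs in 36 cells and 38 in 69). Those without held 0.796 and 1.26 CPM (6 UMIs in 221 cells and 12 in 364). Among IPC-like cells, 49 and 85 were called dividing (S or G2/M phase) from phase scores alone, although cluster 19, the IPC-like cluster that raised the cell cycle lists, had 30 and 68 cells. Those called dividing held 109.8 and 111 CPM and those in G1 127 and 143 CPM. The libraries did not overlap, but the fitted change of -0.25 ± 0.13 did not pass the test (adjusted p = 0.269, against a background of 12.1% of 10582 genes, 9.37% higher and 2.77% lower). With cells of at least 500 genes it did (-0.59, adjusted p = 0.0248, from 0.0248 to 0.798 over 9 alternatives).

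The fall of Sstr2 was seen across the neuron clusters. Newborn clusters 9, 1 and 3, which had raised Eomes, held 141 to 213 CPM over both libraries. Newborn cluster 13, with Adamtsl3 among its leading genes and no raised Eomes, held 85.7 and 97.9 CPM. Later clusters 10 and 11 held 13.9 and 31.4 and 13.1 and 23.1 CPM, cluster 17 held 6.98 and 11.01 CPM and cluster 16 held 2.80 and 3.78 CPM. If cluster 13 was counted with the later neurons, the Sstr2 level of that class was 26.7 CPM in place of 13.4 and the difference remained called.

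**Figure D3:**
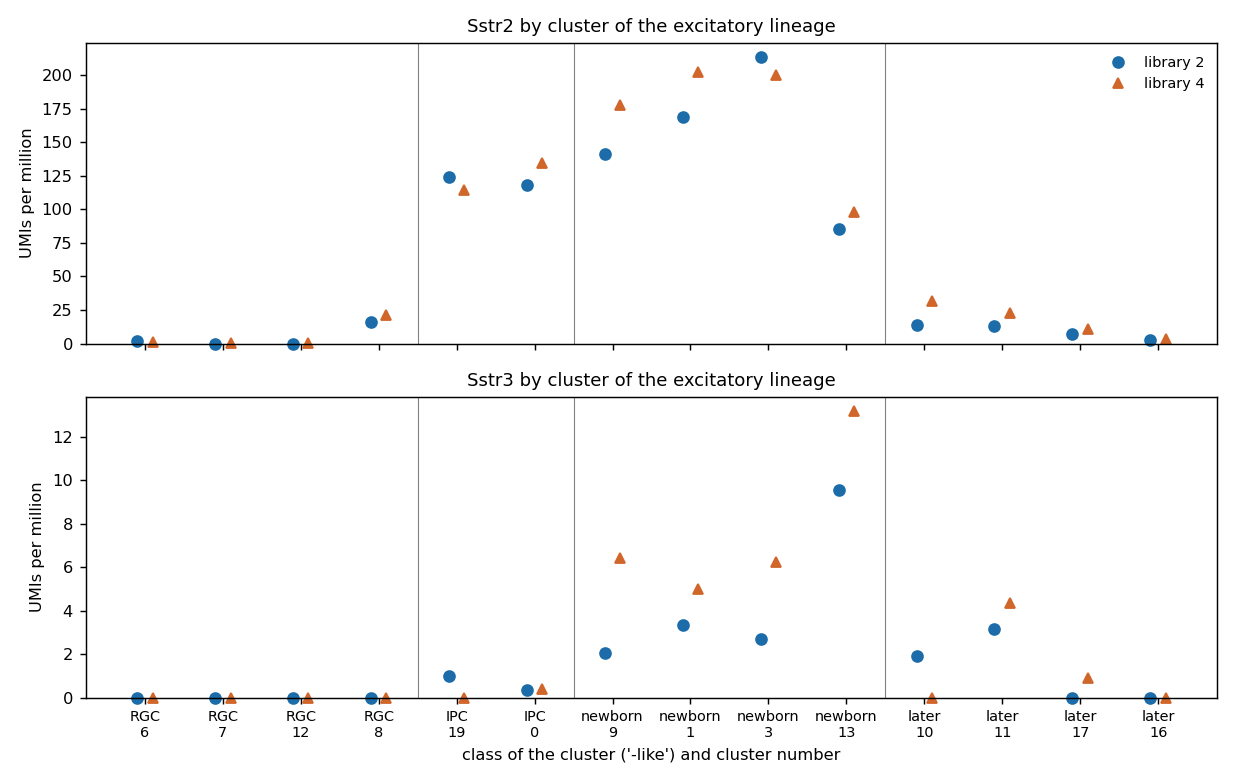
Levels of Sstr2 (top) and Sstr3 (bottom) in CPM for the 14 clusters of the excitatory lineage, grouped by class (vertical lines) and numbered as in the text; circles are library 2 and triangles library 4. Sstr2 is highest in newborn clusters 1 and 3 and present in RGC-like cluster 8 but near 0 in the other RGC-like clusters, and Sstr3 is highest in newborn cluster 13.

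The same course was seen when cells of the 4 lineage classes were ordered without cluster borders, by the mean log level of later neuron markers minus that of RGC markers, and cut into 8 bins of equal size. Sstr2 stood at 0.529 ± 0.137 and 2.37 ± 0.108 CPM in bins 1 and 2, then at 104.6 ± 1.70 in bin 3 and 157 ± 1.18 in bin 4. It fell to 135 ± 7.80, 87.1 ± 5.56, 30.2 ± 8.38 and 5.41 ± 1.76 CPM in bins 5 to 8. Eomes was highest in bin 3 (496 and 623 CPM), which was 69.4% and 57.9% IPC-like cells. Sstr2 was highest in bin 4, which was 61.9% and 63.1% newborn cells. Sstr3 rose later, with no UMI in bins 1 and 2, 3.03 ± 0.554 CPM in bin 4, 4.42 to 4.55 CPM in bins 5 to 7 and 1.22 ± 0.927 in bin 8. Bins 5 to 7 differed in Sstr3 by less than the spread between libraries.

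**Figure D4:**
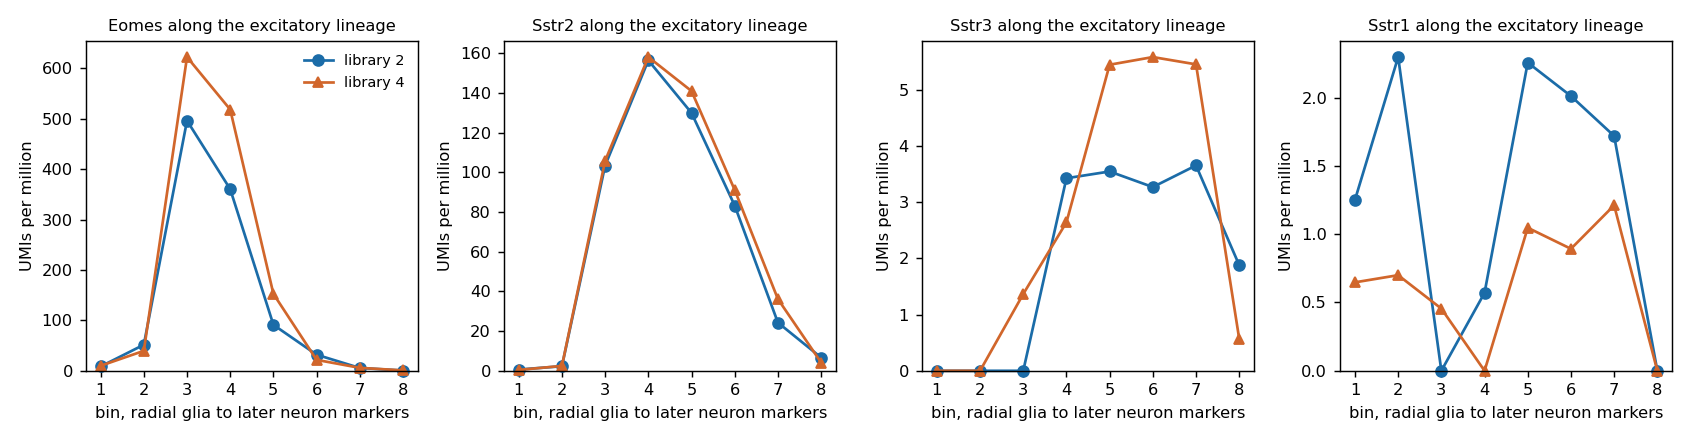
Levels of Eomes, Sstr2, Sstr3 and Sstr1 in CPM (linear axes that differ between panels) over 8 bins of cells ordered from radial glial to later excitatory neuron markers; circles and triangles are libraries 2 and 4. Eomes is highest in bin 3, Sstr2 in bin 4, Sstr3 stays between 3.27 and 5.58 from bin 5 to bin 7, and Sstr1 stays at or under 2.30 in every bin.

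MGE interneuron-like cells, with or without an Sst UMI, had almost no Sstr2. MGE interneuron-like cells held 1 and 3 Sstr2 UMIs (0.803 and 2.70 CPM), lower than later excitatory neuron-like cells by 3.09 ± 0.82 on the log2 scale (adjusted p = 0.0158), a ratio of levels of 7.99 with a 95% counting interval of 3.09 to 29.5. Of the 49 Sst-positive cells 1 held an Sstr2 UMI, and the 88 Sst-negative cells of the class held 3 Sstr2 UMIs. Lhx6-negative interneuron-like cells were also low, with 2 Sstr2 UMIs in 61 cells. The MGE class did not differ from them past the threshold (log2 fold change -0.47 ± 1.89, adjusted p = 0.987). Striatal projection neuron-like cells, nearly all of library 4, held 24 Sstr2 UMIs, all in the 30 cells of a sub-cluster led by Slit3 and Six3os1 with Drd2 (49.1 CPM). Cajal-Retzius-like cells (16.5 ± 15.4 CPM), hem or choroid plexus-like cells (8.23 ± 1.75 CPM) and meningeal or vascular-like cells (7.88 ± 6.26 CPM) also held Sstr2, and these were not tested. Single cells carried much of it, since in library 4 all 4 UMIs of the hem or choroid plexus-like class lay in 1 cell and 11 of the 18 of the meningeal or vascular-like class in another (12.3 CPM, or 4.91 without it).

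Sstr3, a receptor known for its place in neuronal cilia, was sparse and had a narrower distribution than Sstr2. RGC-like cells held no Sstr3 UMI (0 of 690 cells) and IPC-like cells 2 and 1. Newborn excitatory neuron-like cells held 42 and 75 UMIs (5.23 and 7.78 CPM, 6.50 ± 1.81) and later excitatory neuron-like cells 20 and 23 (1.61 and 1.71 CPM, 1.66 ± 0.0711). No other class held any, so that 71.8% of the 163 UMIs lay in newborn and 26.4% in later neurons. From IPC-like to newborn cells the log2 fold change was 4.14 ± 0.67 (adjusted p = 0.0020), called under all 11 alternatives (2.13e-06 to 0.00745). As a ratio of levels it was 17.6 with a 95% counting interval of 5.88 to 86.7. From newborn to later cells it fell by 1.88 ± 0.45 (adjusted p = 0.0161). That call was lost with called doublets kept (adjusted p = 0.0529) and with at most 5% mitochondrial UMIs (adjusted p = 0.129), over a range from 0.00415 to 0.129 for 11 alternatives. In both comparisons Sstr3 passed the filter on low counts through the newborn class, where it is high, so that these calls are descriptions and no independent result. With cluster 13 counted as later, Sstr3 stood at 4.39 CPM in newborn and 3.27 CPM in later cells, with no test value.

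Sstr3 was highest where Sstr2 was already lower. Cluster 13 held 9.56 and 13.2 CPM of Sstr3, against 2.06 to 6.42 CPM in newborn clusters 9, 1 and 3 and 3.17 and 4.34 CPM in later cluster 11. In newborn cells an Sstr3 UMI was found in 13.5% of Sstr2-positive and 16.3% of Sstr2-negative cells of library 2, and in 15.8% and 9.59% of library 4. In later excitatory neuron-like cells the shares were 12.1% and 3.25% in library 2 and 7.41% and 3.67% in library 4. The direction thus differed between libraries in newborn cells and was the same in later cells, where 8 cells of each library held both receptors, and neither was tested. MGE interneuron-like cells held no Sstr3 UMI (0 of 54 and 0 of 83 cells, which by the same limit allows shares of cells with a UMI of up to 5.56% and 3.61%), and the newborn level was at least 5.20-fold higher than the floor of 3 UMIs in that class.

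Sstr1 and Sstr4 did not pass the filter on low counts and were not tested in the fits reported here. Sstr1 had 71 UMIs in 52 cells. RGC-like cells held 14 and 9 (1.61 and 0.788 CPM), later excitatory neuron-like cells 19 and 9 (1.53 and 0.669 CPM) and newborn cells 6 and 6 (0.747 and 0.623 CPM). Later excitatory neuron-like cells overlapped with both other classes, whereas both RGC-like libraries lay above both newborn ones. IPC-like cells held none in 301 cells, and the RGC-like level was at least 3.04-fold higher than a floor of 3 UMIs over both libraries. With all genes of at least 1 count entered, edgeR called Sstr1 lower in IPC-like than in RGC-like cells (adjusted p = 0.0243). It did not call Sstr1 between newborn and IPC-like cells (0.0816) or in the other comparisons. In that setting edgeR also called Npy lower in IPC-like than in RGC-like cells (adjusted p = 8.86e-17), where 1 cell held 172 of the RGC-like UMIs. Nothing is therefore read from the Sstr1 call. In later cluster 10, which was led by Slit3, 14 and 5 Sstr1 UMIs were found (6.69 and 1.78 CPM), of which 5 in library 2 lay in 1 cell (4.44 CPM without it), and cluster 11 held 5 and 4. Sstr4 had 3 UMIs in 3 cells, 1 each in MGE interneuron-like, Cajal-Retzius-like and meningeal or vascular-like cells. It was not detectable above background in any class at this depth.

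The genes with the class pattern most like each member were found over the 16 sums of 8 classes and 2 libraries. This is a description, since the sums share libraries and depth. For Sst these were Dgkg, Cntnap3, Cacng3, Lhx6 and Tox2 (Pearson r from 0.974 to 0.994). Lhx6, a transcription factor of MGE interneurons, served to name the class. For Npy they were Cntnap3, Cacng3, Dgkg, Sst and Tox2 (r from 0.953 to 0.963). For Sstr2 they were Plekhf2, A930024E05Rik, Pou3f1, Plcxd2 and Fam53b (r from 0.929 to 0.960). For Sstr3 they were Adamtsl3, 2600014E21Rik, Sema3c, Gramd1b and 9130024F11Rik (r from 0.843 to 0.932), and 9130024F11Rik and Adamtsl3 also led cluster 13.

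Ligands and receptors related to the 6 genes were sparse or had no UMI. Of Cort, the gene of the somatostatin-like peptide cortistatin, MGE interneuron-like cells held 4 and 8 UMIs, and Pyy and Ppy had none in the 6 classes. None of the 3 passed the filter. Of 6 further receptor genes (Sstr5 and 5 NPY receptors), 2 passed it and 1 was called in 1 comparison. This was Npy2r, which encodes a receptor for neuropeptide Y and was found in MGE interneuron-like cells alone, with 14 and 8 UMIs (11.2 and 7.19 CPM) and none in the other 5 classes. It passed the filter through the class in which it was found, so that its call is no independent result. Sstr5 and Npy4r had no UMI in these classes. Npy1r was found mainly in later excitatory neuron-like cells, with 20 and 5 UMIs, and was not called.

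Genes that process and store peptides were compared over 14 genes, all of which passed the filter. From IPC-like to newborn cells 7 were higher and 1 lower, a share of 57.1% (25.2% of all genes) with a median log2 fold change of 1.69, against 0.02 over all genes. Of these, Chgb (log2 fold change 4.19) and Pcsk1n (2.31), which encode granin-family proteins, rose, and Cadps2, which encodes a factor that primes dense-core vesicles, fell by 3.16. In MGE interneuron-like cells 5 were higher and none lower than in later excitatory neuron-like cells (35.7%, against 21.2% of all genes), among them Cadps2 (6.80), Pcsk1 (4.52), which encodes a prohormone convertase, and Pam (1.59), which encodes the enzyme that amidates peptides such as neuropeptide Y. Against Lhx6-negative interneuron-like cells 3 of 14 were higher and none lower (21.4%, against 2.83% of all genes), namely Pam (3.91), Cadps2 (3.03) and Pcsk1n (1.30). Pam stood at 539 and 588 CPM in MGE interneuron-like cells and at 2.80 and 70.6 CPM in Lhx6-negative ones. From RGC-like to IPC-like cells 4 rose and 2 fell (42.9%, against 26.6% of all genes), led by Chga (3.11), Cadps2 (-2.58) and Scg3 (2.40). From newborn to later cells 3 rose and 3 fell (42.9%, against 23.4%), led by Pcsk2 (3.17), Pcsk1n (3.04) and Pam (-2.06). Between dividing and non-dividing IPC-like cells 8 were tested and 2 were higher (12.1% of all genes were called), Chga (1.70) and Cadps (1.04). None of 11 was called in the split by Sst, where edgeR called 20 of all genes and gave 702 an unadjusted p under 0.05.

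Of 12 genes of Gi/o subunits, through which the receptors signal, 1 rose and 4 fell from RGC-like to IPC-like cells (41.7%, against 26.6% of all genes), led by Gnb4 (-1.74), Gnai2 (-1.46) and Gng3 (1.46). From IPC-like to newborn cells 4 rose and 1 fell (41.7%, against 25.2%), led by Gnaz (1.59), Gng2 (1.21) and Gng3 (1.05). From newborn to later cells 7 rose and none fell (58.3%, against 23.4% of all genes), with a median of 0.87 against 0.04, led by Gnb4 (2.18), Gnaz (1.46) and Gng2 (1.05). In MGE interneuron-like cells 1 of 12 was lower than in later excitatory neuron-like cells (Gnb2, -0.65) and 1 lower than in Lhx6-negative ones (Gnai2, -1.01), against 21.2% and 2.83% of all genes called.

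Of 15 effector genes 13 passed the filter. From RGC-like to IPC-like cells 3 rose and 2 fell (38.5%, against 26.6% of all genes), and Kcnj3, which encodes a subunit of GIRK channels, rose from 5.16 and 3.24 CPM to 64.5 and 84.6 CPM (log2 fold change 4.25), in the same step as Sstr2. Adcy1, an adenylyl cyclase gene, fell by 2.46, and Adcy8 stood at 3.44 and 0.876 CPM in RGC-like cells and at 0 in IPC-like cells. From IPC-like to newborn cells 3 rose and none fell (23.1%, under the 25.2% of all genes), namely the calcium channel genes Cacna1b (2.62) and Cacna1a (1.19) and the adenylyl cyclase gene Adcy5 (0.86). From newborn to later cells 8 rose and none fell (61.5%, against 23.4%), led by Adcy1 (4.51), Adcy8 (4.46) and Cacna1b (1.71). The passing of Adcy8 through the filter on low counts may not have been independent of its level in later cells, so that its calls are descriptions. Kcnj3 was lower in MGE interneuron-like than in later excitatory neuron-like cells (log2 fold change -4.48), as were Adcy1 (-1.24) and Adcy8 (0.803 and 0.898 against 9.01 and 8.55 CPM), with 1 of the 13 higher (30.8% called, against 21.2%), and none differed from Lhx6-negative cells past the threshold. Adcy5 was lower in IPC-like cells called dividing (-1.62), a call kept in 6 of 9 alternatives.

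Of 14 arrestin, receptor kinase and RGS genes, whose products end or shorten receptor signalling, 3 rose and none fell from RGC-like to IPC-like cells, namely Rgs16 (2.59), Grk3 (1.33) and Rgs8 (1.19), a share of 21.4% that was under the 26.6% of all genes. From IPC-like to newborn cells 4 rose and 2 fell (42.9%, against 25.2%), led by Rgs7 (2.40), Arrb1 (2.31) and Rgs17 (2.19). From newborn to later cells 5 rose and 2 fell (50%, against 23.4%), led by Rgs4 (9.09 and 7.43 CPM, against 1 UMI in newborn cells), Rgs7 (2.31) and Rgs8 (1.39). The passing of Rgs4 through the filter on low counts may not have been independent of its level in later cells. Its calls here and against MGE interneuron-like cells are therefore descriptions. In MGE interneuron-like cells 1 was higher and 3 lower than in later excitatory neuron-like cells (28.6%, against 21.2%), the 3 being Rgs4 (0 and 0.898 against 9.09 and 7.43 CPM), Rgs16 (2.41 and 0 against 14.6 and 18.2 CPM) and Rgs8 (0.803 and 1.80 against 11.9 and 11.6 CPM). Rgs8 was also lower than in Lhx6-negative cells (16.8 and 15.4 CPM). Grk6 was higher in dividing IPC-like cells (0.89), a call kept in 7 of 9 alternatives. It was the 1 gene called of 9 tested there (11.1%, near the 12.1% of all genes).

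Of 12 other neuropeptide genes of interneurons 6 passed the filter. MGE interneuron-like cells were higher than later excitatory neuron-like cells in 2 and lower in 3 (7.41% of all genes were higher and 13.8% lower). Pnoc, the prepronociceptin gene, was higher (11.2 and 16.2 against 0.0804 and 0.149 CPM). Nts and Adcyap1 had no UMI in the MGE class and stood at 8.93 and 19.4 and at 5.87 and 4.83 CPM in later excitatory neuron-like cells. The passing of Pnoc, Nts and Adcyap1 through the filter on low counts may not have been independent of the classes where they were high. The counts and calls of this list are therefore descriptions. Tac1 was counted in library 4 alone of the MGE class (29 UMIs), and Vip had no UMI in the 6 classes. Along the lineage, Adcyap1 rose from RGC-like to IPC-like cells, as Sstr2 did, from 0.229 and 0.0876 CPM (3 UMIs) to 5.11 and 4.22 CPM. It was the 1 gene of 6 called in that step (16.7%, under the 26.6% of all genes). From IPC-like to newborn cells none of the 6 was called, against 25.2% of all genes. Cck (5.24) and Nts (5.35) rose from newborn to later cells, where 2 of 6 were called (33.3%, against 23.4% of all genes).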

How the data were processed

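Dorsal telencephalon had been dissociated with papain, and libraries had been made with the 10x Genomics 3′ v3.1 kit. Per the submitters' processing notes, reads were processed with Cell Ranger 7.0.0 on mm10. As deposited by the authors, the values were raw counts of UMIs for each gene in each barcode, with no normalization. This version counts intronic reads by default, and whether that was changed is not given in the sources used here. The counts per library totalled 40267872 and 49422007 over 1712 and 2589 barcodes, which limits genes with few UMIs. The study describes C57BL/6J embryos, the labels name EomesDot, and how these relate is not stated.

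Barcodes under 1000 genes or over 10% mitochondrial UMIs were removed, and 12 (0.991%) and 48 (2.44%) doublets called by Scrublet in scanpy 1.11.5 were left out. Cells were scaled to 10000 UMIs, log-transformed and clustered (2000 variable genes, 30 components, 20 neighbours, Leiden resolution 1) into 24 clusters. GABAergic clusters were clustered again into 9 sub-clusters. A marker was raised at a log2 ratio of 1 to the median cluster (10 CPM added) in 25% of cells. The scoring rule was set after clusterings had been seen, and names may differ from the study's.

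UMIs were summed per library and class. The 8 classes that reached 10 cells in both libraries gave 16 sums, fitted together in edgeR 4.0.16 (R 4.3.3) by the quasi-likelihood test (TMM, filterByExpr), with calls at an adjusted p under 0.05. Sst-positive and Sst-negative cells, and dividing and non-dividing IPC-like cells, had fits of their own. Cells were never replicates. The 2 libraries are 1 sample each, and nothing states whether they came from 1 litter. Equal numbers mark 1 library, so that class sums of 1 library form pairs, but the reported fit had no term for the library. Deviations correlated between classes with a median r of 0.0891 (from 0.0127 to 0.262 over 28 pairs). DESeq2 1.42.0 and the library as a block were alternatives. The fits were tested on simulated data, in which only genes above a minimum mean count were changed and all genes had the same spread. Sparser genes, and genes held by few cells, were not covered by it. Standard errors are the fold change over the square root of F. The members and lists were chosen with earlier results of these data known. Named genes were the members, up to 3 called genes of largest fold change per list and comparison, and the 5 genes most like each member with at least 100 UMIs, among those with a mean of at least 10 CPM. Sequences and positions came from RefSeq tables of GRCm38.p6.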

Additional observations from a re-analysis of the deposited data

Results flagged for a closer look

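UMIs of the members were also found in barcodes that no comparison used, above the 3 UMIs that a count of 0 allows, and no explanation was tested. Barcodes under 1000 genes (865) held 56 Sst, 39 Npy and 22 Sstr2 UMIs. Barcodes over the mitochondrial limit (254) held 25 Sst, 23 Npy and 43 Sstr2 UMIs. The 60 called doublets held 22 Sst, 13 Npy, 5 Sstr1, 127 Sstr2 and 9 Sstr3 UMIs. In CPM, Sst stood at 33.4, 16.97 and 6.70 and Sstr2 at 13.1, 29.2 and 38.7 in these 3 sets of barcodes.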

How the results depend on the processing

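Leaving out 1 library leaves no residual degrees of freedom, so these fits gave fold changes without a test, and no counts of calls. The Lhx6-negative class fell under 10 cells in library 2 with doublets kept, a minimum of 500 genes, a 5% mitochondrial limit, Leiden resolution 0.5 or each UMI kept with probability 0.5, so its comparison has no value there. Alternatives that rename the newborn clusters or the mixed sub-cluster, and those without the richest cell, were chosen after seeing the data. Where values moved the cause was not tested.

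Counts of genes called moved by over 1.5 times as follows. Newborn against IPC-like cells gave 2162 in place of 3634 with at least 500 genes. Later against newborn cells gave 5202 in place of 3376 in a fit of these classes alone. MGE against Lhx6-negative cells gave 705 with DESeq2, 1000 with all genes of at least 1 count and 196 in a fit of these classes alone, in place of 408. Sst-positive against Sst-negative cells gave 43 with DESeq2, 266 with all genes, 105 with the replicate block, 77 with at least 3 Sst UMIs, 8 after thinning and 1 with the mixed sub-cluster, in place of 20. Dividing against non-dividing IPC-like cells gave 816 with DESeq2 and 2154 with all genes, in place of 1285. Apart from Npy between MGE and Lhx6-negative cells, the block changed no call of a member.

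Among fold changes of members that turned in sign, none was called as reported. Npy between IPC-like and RGC-like cells (log2 -4.50) was 1.19 with at least 500 genes and from -5.98 (without replicate 4) to 2.17 (without replicate 2) when 1 library was left out. Sst between later and newborn cells (-0.01) was 2.70 with at least 500 genes (adjusted p = 0.00984), 1.68 with doublets kept, 1.72 at Leiden resolution 2, 0.0186 with DESeq2, 0.00523 with the block, 2.01 with UMIs split, and from -0.0735 (without replicate 2) to 2.15 (without replicate 4). With UMIs split, Sst turned from -0.16 to 0.70 between IPC-like and RGC-like cells and from 0.36 to -0.80 between newborn and IPC-like cells, and it differed in sign between the libraries in both. Sstr2 between MGE and Lhx6-negative cells, on 3 UMIs or fewer in each sum, also differed in sign between them. Of 62 calls of named pathway genes 38 were kept under every alternative that gave a value and 24 were lost in some, most often Cadps and Adcy5 in dividing cells (each called in 6 of 9), Adcy8 between IPC-like and RGC-like cells (8 of 12), Adcy5 between newborn and IPC-like cells (9 of 13) and Rgs4 between MGE and later cells (9 of 13).

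Levels moved by more than the SD between libraries as follows, in CPM. Without the richest cell of each library, Sst and Npy in the MGE class were 399.8 and 127, Sstr2 in RGC-like cells 3.01 and Sstr3 in later cells 1.47. Sstr2 in RGC-like cells was 1.78 with at least 500 genes, 2.12 with doublets, and 16.2 and 2.92 at Leiden resolutions 0.5 and 2. Sstr2 in IPC-like cells was 141 with at least 500 genes and 111 with doublets. Sstr2 in newborn cells was 137 with at least 500 genes, 120.1 under the 5% mitochondrial limit and 128 at resolution 2. With newborn clusters lacking raised Eomes counted as later, Sstr2 was 193 and 26.7 and Sstr3 4.39 and 3.27 in newborn and later cells. Sstr3 in newborn cells was 4.51 under the 5% mitochondrial limit. Sstr3 in later cells was 1.76 with at least 500 genes, 1.92 under the 5% limit, 2.21 with doublets, and 1.21 and 1.07 at resolutions 0.5 and 2. With 5 bins the highest Sstr2 level was 149 in place of 157.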
